A study of Mus musculus with 18 samples.

Results

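The cytosolic ribosomal protein genes of mouse bone-marrow-derived dendritic cells were followed through 6 treatment groups. Members were all genes whose symbol begins with Rpl or Rps and continues with a number, with P and a number, or with the letter a, with an optional closing a or x. The rule used symbols and no measured value, but this gene family was chosen with earlier results of these data known. The symbols gave 76 genes of 23420 listed, 46 of the large subunit and 30 of the small subunit. All 76 passed the filter on low counts that left 11876 genes for testing.

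The study asked how loss of Bat3, the chaperone gene whose current symbol is Bag6, changed dendritic cells of C57BL/6 mice. Cells were grown from bone marrow with GM-CSF, treated for 8 h, and sorted alive for high CD11c before total RNA was taken. The cKO LPS group was Bat3 fl/fl with CD11c Cre and received lipopolysaccharide, a bacterial ligand of Toll-like receptor signalling. The cKO medium group had the same genotype and no stimulus. The WT cytokine plus LPS group received IL-10, TGF-β and LPS, and the WT LPS group received LPS alone. The WT cytokine group received IL-10 and TGF-β, and the WT medium group received no stimulus. Each group had 3 libraries. The CD11c promoter drives the Cre, and CD11c was also the marker of the sort. The labels did not tie libraries to separate animals, so p-values measure the spread between these libraries, which may be partly technical.

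Ribosomal proteins join ribosomal RNA to form the small subunit, which reads the messenger RNA, and the large subunit, which forms peptide bonds. Their messenger RNAs are the best known TOP messages: they begin with a C followed by a tract of pyrimidines, and this tract lets the kinase complex mTORC1 and the RNA-binding protein LARP1 set their translation and stability together. Outside the ribosome, Rpl5 and Rpl11 can bind MDM2 and so stabilise p53. Dendritic cells that sense a bacterial product mature, change their protein synthesis and stop dividing.

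The start of the messenger RNA is shown for 7 members because the TOP tract is the sequence feature these genes are known to share. Each line gives 30 bases of the RefSeq annotation on GRCm38.p6, with the annotated first base of the transcript at position 16, and capitals mark a run of pyrimidines that begins with C at that base.
Rps6, chr4:86857353-86857382, minus strand: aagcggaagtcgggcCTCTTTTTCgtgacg
Rplp2, chr7:141447636-141447665, plus strand: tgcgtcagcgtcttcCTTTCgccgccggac
Rps27, chr3:90213634-90213663, minus strand: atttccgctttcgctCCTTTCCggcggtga
Rpl38, chr11:114668565-114668594, plus strand: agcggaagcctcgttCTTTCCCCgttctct
Rpl14, chr9:120571502-120571531, plus strand: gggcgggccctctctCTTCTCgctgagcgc
Rplp0, chr5:115559452-115559481, plus strand: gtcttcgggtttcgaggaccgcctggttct
Rpl5, chr5:107900513-107900542, plus strand: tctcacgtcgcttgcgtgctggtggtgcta
A run of C and at least 4 further bases that are C or T, read on the gene's own strand and starting at the annotated first base, was found in 13 of the 56 members with a start window (23.2%), against 813 of 27025 genes in the annotation (3.01%). Runs in members were 5 to 13 bases long. Starting anywhere within 10 bases of the annotated start, such a run was found in 34 of 56 members (60.7%) and in 9297 of 27025 genes (34.4%). Rplp0 and Rpl5 carry no run at the annotated base, which says only that these letters are not in this window. The median log2 fold change of cKO LPS over WT LPS was 0.68 in the 13 members with the run and 0.70 in the 43 without, and that of WT LPS over WT medium was -0.54 with the run and -0.50 without. It was 0.02 with the run and 0.17 without for cKO LPS over cKO medium, -0.29 and -0.18 for WT cytokine plus LPS over WT LPS, and -0.48 and -0.38 for WT cytokine plus LPS over WT cytokine. These splits were not tested.

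Libraries held 8056831 to 12068759 expected counts. Bag6 (chr17:35135156-35147321) averaged 9.36 ± 2.68 CPM in cKO LPS and 5.56 ± 1.52 CPM in cKO medium, against 24.03 ± 0.757 CPM in WT LPS and 23.5 ± 0.982 CPM in WT medium (SD, n = 3 each). Its log2 fold change was -1.36, SE 0.17, adjusted p = 9.3e-06 under LPS and -2.08, SE 0.17, adjusted p = 9.1e-08 in medium. Replicate 1 of both cKO groups held Xist, the RNA of the inactive X chromosome, at 1014 CPM in cKO LPS and 526 CPM in cKO medium, while the other 16 libraries held at most 1.12 CPM. Counts of members called in the comparisons with cKO groups, and some single members, are also given without them. Most single-gene results and the lists of other genes are given only with them. Of 10 dendritic cell markers, Flt3 was under 1 CPM in every group, and all 7 lymphocyte markers were under 1 CPM. The 14 markers of neutrophil and granulocyte precursors summed to 4581 to 7873 CPM in cKO LPS, 6963 to 10303 CPM in cKO medium, 14182 to 15405 CPM in WT cytokine plus LPS, 4228 to 7992 CPM in WT LPS, 15194 to 18092 CPM in WT cytokine and 2700.0 to 3883 CPM in WT medium.

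Ribosomal protein messages were among the abundant transcripts of these cells, and on the per-length scale most lay close together. In WT medium the median member was at 1759.7 TPM, and the quartiles lay about 2-fold apart in every group (1.98 to 2.29). Rpl41, which encodes a very short basic peptide of the large subunit, had the highest level in all 6 groups, with 3378 TPM in cKO LPS and 4586 TPM in WT medium. Rpl34 was listed at 29.4 TPM in cKO LPS and 41.04 TPM in WT medium, and Rpl30 at 28.3 TPM in cKO LPS and 107 TPM in WT medium. For Rpl34 the processed copy Rpl34-ps1 held 357 to 472 CPM in cKO LPS and 299 to 367 CPM in WT medium. CPM is not scaled by length, so these values cannot be set directly against the TPM of the parent gene. Reads shared with such copies can be split between them, so the levels of Rpl34, Rps15a and other members with near-identical copies are uncertain.

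Together the members took a smaller share of the library with LPS than without it in both genotypes, and with LPS the share was larger in cKO than in WT libraries. These shares were not tested. The share of expected counts was 4.42% ± 0.353 in cKO LPS, 5.70% ± 0.273 in cKO medium, 2.82% ± 0.202 in WT cytokine plus LPS, 3.27% ± 0.331 in WT LPS, 4.11% ± 0.201 in WT cytokine and 5.45% ± 0.380 in WT medium (SD, n = 3 each). The lowest cKO LPS library (4.02%) was above the highest WT LPS library (3.52%), whereas the ranges of cKO medium (5.40 to 5.92%) and WT medium (5.05 to 5.81%) overlapped. As a share of summed TPM the order of the groups with LPS was the same, with 10.01% in cKO LPS, 6.83% in WT cytokine plus LPS and 7.91% in WT LPS, against 12.9% in cKO medium, 9.90% in WT cytokine and 12.99% in WT medium. The 76 mitochondrial ribosomal protein genes of the files, which build a separate ribosome, ran the other way between genotypes under LPS, with 0.174% of counts in cKO LPS and 0.217% in WT LPS. In bulk samples such as these, fewer cells of a type and less RNA per cell cannot be told apart.

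**Figure D1:**
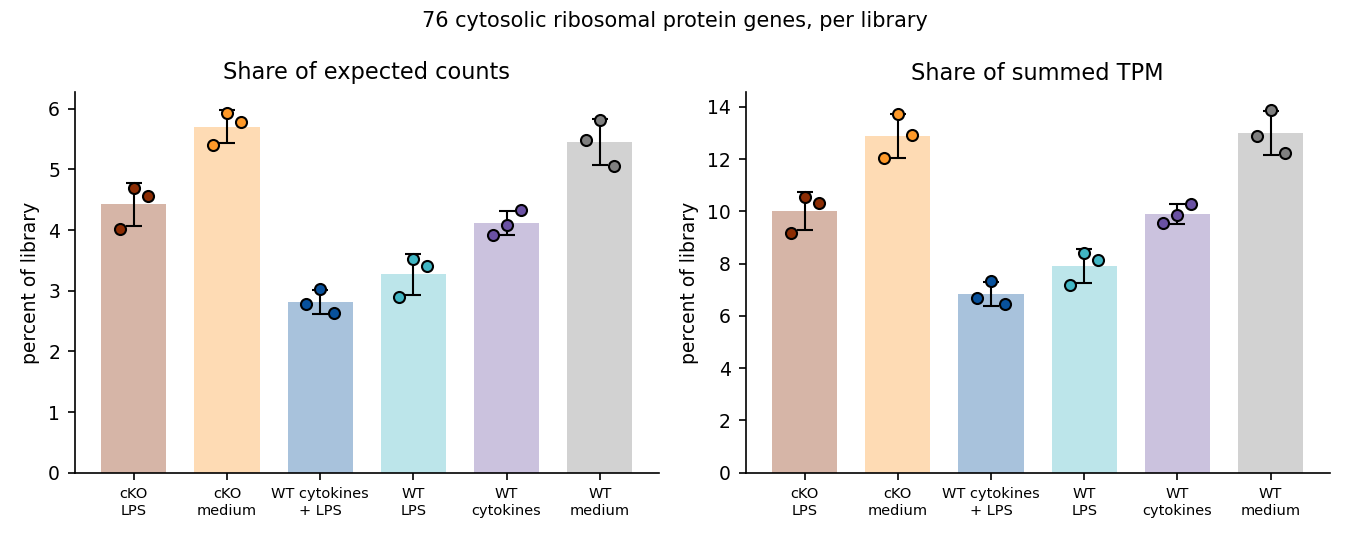
Percent of each library's expected counts (left) and of its summed TPM (right) from the 76 cytosolic ribosomal protein genes; bars are group means, error bars are SD over 3 libraries and points are libraries. All 3 cKO LPS libraries (4.02 to 4.69% of counts) lie above all 3 WT LPS libraries (2.89 to 3.52%), while cKO medium and WT medium overlap.

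Under LPS, ribosomal protein messages were higher in cKO cells than in WT cells almost without exception, and by much the same amount. Of the 76 members 72 were called higher in cKO LPS than in WT LPS and 0 lower, at an adjusted p under 0.05 by edgeR's quasi-likelihood test with Benjamini-Hochberg adjustment over all tested genes, where 16.0% of all tested genes were called higher and 19.3% lower. At an unadjusted p under 0.05, 73 were higher and 0 lower, and DESeq2 also called 72 higher and 0 lower. The median log2 fold change was 0.69, a 1.62-fold difference, against a median of -0.05 over all tested genes. The members spread little around it, from 0.17 for Rpl30 to 0.87 for Rps27, with an SD of 0.10 over members. In 72 members every cKO LPS library lay above every WT LPS library, as in 22.8% of all tested genes. The large subunit (44 of 46 called, median 0.70) and the small subunit (28 of 30, median 0.69) did not stand apart from each other. The 4 members not called were Rpl30, Rpl26, Rps12 and Rps27. Leaving out any single library gave 69 to 73 members higher.

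The stalk of the large subunit, which recruits the translation factors, followed the common pattern. Rplp0 (chr5:115559467-115563729), the base of the stalk, was measured at 1995, 2292 and 2146 CPM in cKO LPS, against 1137, 1417 and 1373 CPM in WT LPS. All cKO LPS libraries were above all WT LPS libraries, with a log2 fold change of 0.71, SE 0.09, adjusted p = 1.2e-05. Rplp1 (chr9:61913283-61914510) had 822, 956 and 905 CPM in cKO LPS, against 484, 672 and 554 CPM in WT LPS (log2 fold change 0.65, SE 0.13, adjusted p = 0.00088), and Rplp2 (chr7:141447651-141451359) had 386, 473 and 464 CPM in cKO LPS, against 223, 327 and 273 CPM in WT LPS (log2 fold change 0.69, SE 0.18, adjusted p = 0.0078). In both acidic stalk proteins the groups did not overlap, and WT LPS replicate 1 was the lowest library. On log2(TPM + 1) with limma these 2 calls were lost, with 0.30 and adjusted p = 0.053 for Rplp1 and 0.34 and adjusted p = 0.11 for Rplp2. Rplp2 also missed the threshold with the length offset (0.45, adjusted p = 0.062) and without WT LPS replicate 1 (0.56, adjusted p = 0.05).

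The members called with the largest differences under LPS were Rps2, Rpl3 and Rpl32. Rps2 (chr17:24718121-24721927), a small subunit protein near the messenger RNA entry, had 1227, 1374 and 1378 CPM in cKO LPS, against 622, 881 and 742 CPM in WT LPS (log2 fold change 0.83, SE 0.17, adjusted p = 0.0011). Rpl3 (chr15:80077781-80083406), which lies close to the peptidyl transferase centre, had 1169.8, 1366 and 1350.4 CPM in cKO LPS, against 629.7, 787 and 785 CPM in WT LPS (log2 fold change 0.82, SE 0.11, adjusted p = 2.4e-05). Rpl32 (chr6:115805514-115808743) had 615, 729 and 741 CPM in cKO LPS, against 334, 449 and 399 CPM in WT LPS (log2 fold change 0.82, SE 0.11, adjusted p = 1.2e-05). In none of these 3 genes did a WT LPS library reach a cKO LPS library. The smallest differences called were those of Rps9 (0.51, SE 0.10, adjusted p = 0.00062), Rpl41 (0.52, SE 0.12, adjusted p = 0.002) and Rps29 (0.55, SE 0.15, adjusted p = 0.0076), and all 3 lost the call on log2(TPM + 1) (0.16, 0.16 and 0.19, adjusted p = 0.11, 0.19 and 0.25).

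Members with roles beyond the ribosome were also higher in cKO LPS. Rps6 (chr4:86854099-86857367), the substrate of S6 kinase downstream of mTORC1, had 928, 1071 and 1045 CPM in cKO LPS, against 529, 711 and 675 CPM in WT LPS (log2 fold change 0.67, SE 0.12, adjusted p = 0.00032). Rpl5 (chr5:107900508-107909005) had 1275, 1482 and 1442 CPM in cKO LPS, against 751, 938 and 859 CPM in WT LPS (log2 fold change 0.72, SE 0.21, adjusted p = 0.012), and its partner Rpl11 (chr4:136049354-136053393) had 466, 558 and 530.2 CPM in cKO LPS, against 292, 378 and 347 CPM in WT LPS (log2 fold change 0.61, SE 0.10, adjusted p = 8.8e-05). All 3 genes were separated by group, although the call on Rpl5 was lost on log2(TPM + 1) (0.36, adjusted p = 0.14) and without WT LPS replicate 1 (0.64, adjusted p = 0.069). Rps27a, which is made as a fusion with ubiquitin, differed by 0.66 on the log2 scale (SE 0.11, adjusted p = 0.00015), and Rpsa, also described as a laminin receptor, by 0.76 (SE 0.17, adjusted p = 0.0024; on log2(TPM + 1) 0.40, adjusted p = 0.06). Rpl10, a late-joining protein of the subunit interface, differed by 0.72 (SE 0.11, adjusted p = 6e-05), Rpl22, studied in lymphocyte development, by 0.71 (SE 0.14, adjusted p = 0.0007), and Rpl38, studied in the translation of Hox messages, by 0.74 (SE 0.16, adjusted p = 0.0012).

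Rps27 (chr3:90212667-90213648), a zinc finger protein of the small subunit, had the widest spread between libraries of one group, at 5.58-fold between the highest and the lowest WT cytokine library and 4.54-fold in WT LPS. It had 121, 172 and 174 CPM in cKO LPS, against 33.3, 69.4 and 151 CPM in WT LPS. WT LPS replicate 3 reached the cKO LPS range while replicates 1 and 2 were far below it, and the log2 fold change of 0.87 had an SE of 0.59 (adjusted p = 0.27). Rps12 had 551, 699 and 633 CPM in cKO LPS, against 346, 442 and 391 CPM in WT LPS; the groups did not overlap, but the difference of 0.68 missed the threshold (SE 0.28, adjusted p = 0.076). Rpl30 had 12.4, 8.26 and 12.5 CPM in cKO LPS, against 13.3, 7.35 and 8.83 CPM in WT LPS, and Rpl26 had 80.1, 86.1 and 69.8 CPM in cKO LPS, against 39.7, 67.0 and 71.9 CPM in WT LPS. Both overlapped between the groups.

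The size of the difference under LPS depended on the scale. The TMM scaling factors were 0.797 to 0.807 in cKO LPS and 0.912 to 1.00 in WT LPS. In limma on log2(TPM + 1) the median of all tested genes was -0.31 and that of members 0.34, a member median 0.65 above all genes, with 56 members called higher and 0 lower. With an offset for a trend on gene length the member median was 0.56, with 69 called higher. Without replicate 1 of both cKO groups 73 members were called higher and the median was 0.77. Granulocyte markers (0 of 14 called higher and 0 lower) and cycling markers (1 of 11 higher, 0 lower) gave no common direction between cKO LPS and WT LPS, while among dendritic cell markers 0 of 9 were higher and 1 lower. Of 9 macrophage markers 4 were higher and 2 lower, and the part of the markers in the result was not tested.

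**Figure D2:**
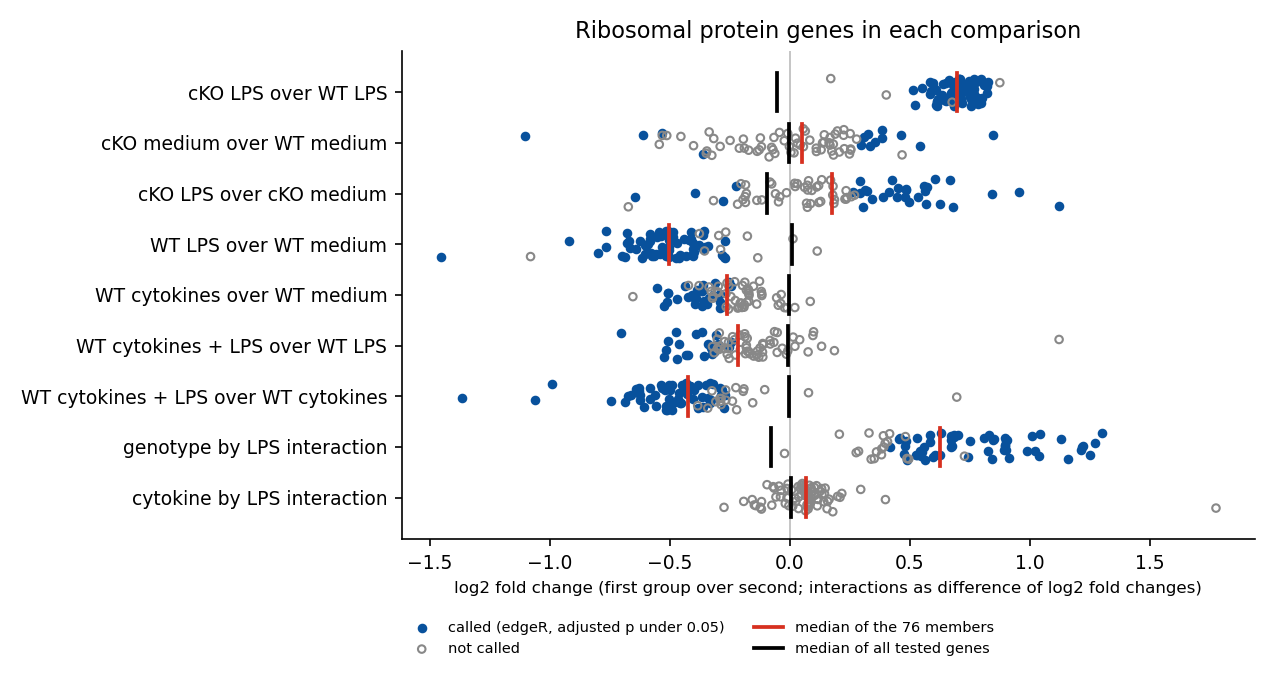
Log2 fold change of each of the 76 members in the 7 pair comparisons and 2 interactions; filled points were called (edgeR, adjusted p under 0.05), open points were not, the red line is the members' median and the black line that of all 11876 tested genes. Members cluster around 0.69 in cKO LPS over WT LPS and around -0.50 in WT LPS over WT medium, and spread from -1.10 to 0.85 in cKO medium over WT medium.

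In WT cells LPS lowered ribosomal protein messages broadly. Of 76 members 66 were called lower in WT LPS than in WT medium and 0 higher, where 28.9% of all tested genes were called lower and 29.8% higher. At an unadjusted p under 0.05, 67 were lower and 0 higher, and DESeq2 called 66 lower and 0 higher. The median log2 fold change was -0.50, against 0.01 over all tested genes, and in 61 members every WT LPS library lay below every WT medium library, as in 30.9% of all tested genes. The large subunit (41 of 46, median -0.50) and the small subunit (25 of 30, median -0.50) had like values. Leaving out any single library gave 54 to 68 members lower. The 10 members not called were Rpl19, Rpl24, Rpl26, Rpl39, Rplp2, Rps2, Rps12, Rps20, Rps24 and Rps27.

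The largest falls called were those of Rpl30, Rpl3 and Rpl10a. Rpl30 (chr15:34440505-34443276) had 13.3, 7.35 and 8.83 CPM in WT LPS, against 28.3, 20.2 and 32.5 CPM in WT medium (log2 fold change -1.45, SE 0.25, adjusted p = 5e-05). Rpl3 had 629.7, 787 and 785 CPM in WT LPS, against 1459, 1457 and 1251 CPM in WT medium (log2 fold change -0.92, SE 0.12, adjusted p = 7.6e-07). Rpl10a (chr17:28328471-28331033), the protein of the mobile stalk near the exit site, had 243, 366 and 318 CPM in WT LPS, against 538, 580.4 and 495 CPM in WT medium (log2 fold change -0.80, SE 0.12, adjusted p = 8.4e-06). The groups did not overlap in any of the 3.

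Rps6 fell to 529, 711 and 675 CPM in WT LPS, against 993, 1014 and 900.0 CPM in WT medium (log2 fold change -0.60, SE 0.12, adjusted p = 0.00027). Rpl5 fell to 751, 938 and 859 CPM in WT LPS, against 1389, 1476 and 1237 CPM in WT medium (log2 fold change -0.69, SE 0.21, adjusted p = 0.0086), and Rpl11 by a log2 fold change of -0.58 (SE 0.10, adjusted p = 3.5e-05). In these genes all WT LPS libraries were below all WT medium libraries. In the stalk Rplp0 changed by -0.35 (SE 0.09, adjusted p = 0.003) and Rplp1 by -0.36 (SE 0.13, adjusted p = 0.025), while Rplp2 at -0.38 missed the threshold (adjusted p = 0.085). The call on Rplp1 was lost with the length offset (-0.05, adjusted p = 0.75) and without WT LPS replicate 1, WT LPS replicate 3 or WT medium replicate 2 (adjusted p = 0.12, 0.07 and 0.075). Rpl24 at 0.11 (adjusted p = 0.44) and Rps2 at -0.30 (adjusted p = 0.14) were not called. Among the smallest falls called were those of Rpl23a (-0.27, SE 0.10, adjusted p = 0.033) and Rps19 (-0.27, SE 0.11, adjusted p = 0.041). Each lost its call under 7 alternatives, among them the length offset, where Rpl23a turned to 0.0033 (adjusted p = 0.98), and the omission of WT LPS replicate 1 (-0.16 for Rpl23a and -0.15 for Rps19, adjusted p = 0.19 and 0.23), of WT LPS replicate 3, of WT medium replicate 1 or of WT medium replicate 2 (adjusted p = 0.053 to 0.13).

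With log2(TPM + 1) values 74 members were lower and 0 higher, and the member median of -0.76 stood at -0.56 relative to an all-gene median of -0.19 (log2 units). With the length offset the fall was smaller, with 37 members lower, 1 higher (Rpl24) and a median of -0.28. Members are short, with a median length of 693.5 bases against 2735.5 over all tested genes. All 11 markers of cycling cells were also called lower in WT LPS, with summed levels of 407 to 503 CPM against 1082 to 1435 CPM in WT medium, and their part in the result was not tested.

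In cKO cells the direction of ribosomal protein messages with the same stimulus depended on the scale. Their summed share of counts was smaller in cKO LPS (4.02 to 4.69%) than in cKO medium (5.40 to 5.92%). Of 76 members 28 were called higher in cKO LPS than in cKO medium and 4 lower (Rpl3, Rps6, Rpl14 and Rpl8), where 29.3% of all tested genes were called higher and 34.8% lower. The members called higher were near the background share and those called lower were well below it. The member median was 0.17, against -0.09 over all tested genes. This comparison turned with the scale: on log2(TPM + 1) the member median was -0.35 and that of all genes -0.47 (a difference of 0.11), with 1 member higher (Rps20) and 49 lower. The TMM scaling factors were 0.797 to 0.807 in cKO LPS and 1.12 to 1.15 in cKO medium. Without cKO medium replicate 1 the count of members higher was 18. The count lower was 1 without cKO LPS replicate 1, 7 without cKO medium replicate 2 and 2 without cKO medium replicate 3, and without replicate 1 of both cKO groups the counts were 22 higher and 1 lower. Among markers, 9 of 11 cycling genes and 9 of 14 granulocyte genes were lower in cKO LPS and 1 granulocyte gene higher, 4 of 9 dendritic cell genes were higher and 1 lower, and their part was not tested.

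The largest rises in cKO cells under LPS were those of Rps20, Rps12 and Rplp2. Rps20 (chr4:3831584-3835655), a protein of the small subunit head, had 466, 529 and 525 CPM in cKO LPS, against 166, 325 and 207 CPM in cKO medium (log2 fold change 1.12, SE 0.18, adjusted p = 2.2e-05). Rps12 had 551, 699 and 633 CPM in cKO LPS, against 195, 547 and 231 CPM in cKO medium (log2 fold change 0.95, SE 0.28, adjusted p = 0.0084). Rplp2 had 386, 473 and 464 CPM in cKO LPS, against 185, 346 and 208 CPM in cKO medium (log2 fold change 0.84, SE 0.18, adjusted p = 0.00063). In each of these genes cKO medium replicate 2 was the highest cKO medium library and replicates 1 and 3 were much lower. On log2(TPM + 1) the calls on Rps12 (0.57, adjusted p = 0.062) and Rplp2 (0.36, adjusted p = 0.069) were lost.

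In the other direction, Rpl3 had 1169.8, 1366 and 1350.4 CPM in cKO LPS, against 2310.5, 1697 and 2062 CPM in cKO medium (log2 fold change -0.64, SE 0.11, adjusted p = 4.9e-05). Rps6 had 928, 1071 and 1045 CPM in cKO LPS, against 1498, 1067 and 1441 CPM in cKO medium (log2 fold change -0.40, SE 0.12, adjusted p = 0.0078), and Rpl14 had 358, 413 and 412 CPM in cKO LPS, against 471, 445 and 519.6 CPM in cKO medium (log2 fold change -0.28, SE 0.10, adjusted p = 0.023). Rpl3 and Rpl14 were separated by group, while cKO LPS replicate 2 of Rps6 was level with cKO medium replicate 2. The call on Rps6 was lost with the length offset (-0.19, adjusted p = 0.14), without replicate 1 of both cKO groups (-0.24, adjusted p = 0.16), and without cKO LPS replicate 1 (-0.30, adjusted p = 0.067) or cKO medium replicate 1 (-0.31, adjusted p = 0.051) alone. Rpl14 lost its call under 8 alternatives, with adjusted p = 0.069 to 0.18.

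The difference between the 2 LPS responses was tested directly, as the change with LPS in cKO cells minus the change with LPS in WT cells. Of 76 members 57 had a positive difference past the threshold and 0 a negative one, where 7.33% of all tested genes were called positive and 10.1% negative. At an unadjusted p under 0.05, 68 were positive and 0 negative, and DESeq2 called 67 positive and 0 negative. The member median was 0.63, against -0.08 over all tested genes, and all members but Rps2 had a positive value. With log2(TPM + 1) values 34 were positive and 0 negative, with a member median of 0.35 and a median over all genes of -0.25 (a difference of 0.60). Leaving out any single library gave 46 to 66 positive. With the length offset 44 were positive, and without replicate 1 of both cKO groups 56 were, with a median of 0.66. Granulocyte markers had 0 positive and 4 negative differences of 14 in the same test, and dendritic cell markers 0 of 9 in either direction. Macrophage markers had 3 positive and 1 negative of 9, and cycling markers 2 positive and 0 negative of 11. The part of these markers in the result was not tested.

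The largest differences called were those of Rps20 (1.30, SE 0.25, adjusted p = 0.0023), Rpl30 (1.27, SE 0.36, adjusted p = 0.02) and Rpl5 (1.25, SE 0.29, adjusted p = 0.0078). The call on Rpl30, a gene of few counts, was lost under 6 alternatives (0.99 to 1.23, adjusted p = 0.051 to 0.11). Among the smallest called were those of Rpl8 (0.42, SE 0.13, adjusted p = 0.028) and Rpl15 (0.46, SE 0.14, adjusted p = 0.025), which lost their calls under 7 and 5 alternatives. In the stalk the difference was 0.53 for Rplp0 (SE 0.13, adjusted p = 0.0093; 0.25 and 0.064 on log2(TPM + 1)), 0.90 for Rplp1 (SE 0.19, adjusted p = 0.0031) and 1.22 for Rplp2 (SE 0.26, adjusted p = 0.0043). Rpsa at 1.16 (SE 0.24, adjusted p = 0.0036), Rpl22 at 0.89 (SE 0.20, adjusted p = 0.0043), Rpl10 at 0.85 (SE 0.16, adjusted p = 0.0015) and Rpl38 at 0.91 (SE 0.22, adjusted p = 0.0079; 0.46 and 0.075 with the length offset) were also positive. Rps6 (0.21, adjusted p = 0.44), Rpl3 (0.28, adjusted p = 0.25), Rpl11 (0.36, adjusted p = 0.075) and Rps2 (-0.02, adjusted p = 0.97) missed the threshold. Of the 66 members lower with LPS in WT cells, 4 were also lower in cKO cells, 41 were not called there and 21 were higher. These are calls on TMM-scaled counts, and the direction in cKO cells turned with the scale. On log2(TPM + 1), 1 member was higher and 49 were lower in cKO LPS against cKO medium.

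**Figure D3:**
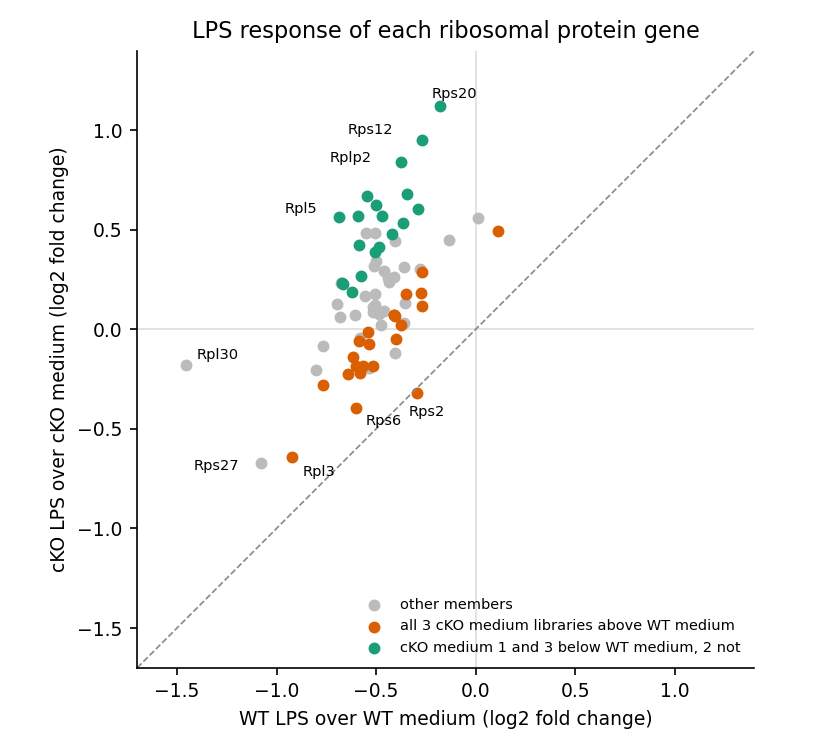
Log2 fold change with LPS of each member in WT cells (horizontal) and in cKO cells (vertical), with the dashed line at equal responses; orange members had all 3 cKO medium libraries above WT medium, and green members had cKO medium replicates 1 and 3 below WT medium but not replicate 2. All points but Rps2 lie above the line, and the green members, among them Rps20, Rps12, Rplp2 and Rpl5, lie 0.81 to 1.30 above it; they were chosen by their cKO medium values, the baseline of the vertical axis, so their place is a description only.

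Without a stimulus, ribosomal protein genes of cKO cells gave no common direction. In cKO medium against WT medium 10 of 76 members were called higher and 4 lower, where 15.8% of all tested genes were called higher and 14.4% lower. Both counts are below the background share. The member median was 0.05, against -0.00 over all tested genes, and values ran from -1.10 for Rpl30 to 0.85 for Rps2, with an SD of 0.31 over members and 0.67 over all tested genes. Among the 10 higher were Rpl3, Rpl6, Rpl13, Rpl24, Rpl32, Rpl36a, Rps2, Rps6 and Rps19, and all 10 were also called higher in cKO LPS than in WT LPS. The 4 lower were Rpl28, Rpl30, Rplp2 and Rps20, and all of these but Rpl30 were called higher in cKO LPS than in WT LPS. The 2 comparisons share no library, but 72 of all 76 members were called higher under LPS. Almost any set of members would overlap in this way.

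Rps2 had 1583, 1626 and 1749 CPM in cKO medium, against 671, 1118 and 967 CPM in WT medium (log2 fold change 0.85, SE 0.17, adjusted p = 0.0012). Rpl3 had 2310.5, 1697 and 2062 CPM in cKO medium, against 1459, 1457 and 1251 CPM in WT medium (log2 fold change 0.54, SE 0.11, adjusted p = 0.0013), and Rps6 had 1498, 1067 and 1441 CPM in cKO medium, against 993, 1014 and 900.0 CPM in WT medium (log2 fold change 0.46, SE 0.12, adjusted p = 0.0074). All 3 cKO medium libraries were above all WT medium libraries in these genes, with replicate 2 the nearest to WT medium in Rpl3 and Rps6. Without cKO medium replicate 1 the difference in Rps6 was 0.37 (adjusted p = 0.051).

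Rps20 had 166, 325 and 207 CPM in cKO medium, against 357, 385 and 324 CPM in WT medium (log2 fold change -0.61, SE 0.17, adjusted p = 0.014). Rplp2 had 185, 346 and 208 CPM in cKO medium, against 347, 393 and 328 CPM in WT medium (log2 fold change -0.53, SE 0.18, adjusted p = 0.035). Rpl30 had 9.07, 13.1 and 15.6 CPM in cKO medium, against 28.3, 20.2 and 32.5 CPM in WT medium (log2 fold change -1.10, SE 0.24, adjusted p = 0.0019). Rpl30 was separated by group, whereas cKO medium replicate 2 lay within the WT medium range in Rps20 and Rplp2. With cKO medium replicate 1 or replicate 3 left out Rps20 was no longer called (-0.42, adjusted p = 0.067, and -0.53, adjusted p = 0.058), and that on Rplp2 under 8 alternatives (-0.59 to -0.36, adjusted p = 0.053 to 0.16).

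The same split between cKO medium libraries ran through many members. In 19 members replicates 1 and 3 of cKO medium were below all WT medium libraries and replicate 2 was not, in 6 members replicates 1 and 3 were above and replicate 2 was not, in 23 members all 3 replicates were above, and in 3 members (Rpl28, Rpl30 and Rps28) all 3 were below. In this order the patterns held 25%, 7.89%, 30.3% and 3.95% of members and 6.59%, 5.68%, 20.1% and 19.3% of all tested genes. Rps12 had 195, 547 and 231 CPM and Rpl5 653, 1431 and 755 CPM in cKO medium, against 449.6, 519.6 and 449 CPM and 1389, 1476 and 1237 CPM in WT medium. Replicate 2 was inside the WT medium range in Rpl5 and above it in Rps12, and replicates 1 and 3 were far below it in both genes. Neither was called, Rps12 at -0.54 (adjusted p = 0.16) and Rpl5 at -0.53 (adjusted p = 0.06), and without cKO medium replicate 2 Rpl5 was called at -0.96 (adjusted p = 1.6e-05). The log2 ratio to the WT medium mean had an SD over the 76 members of 0.48 in replicate 1, 0.20 in replicate 2 and 0.39 in replicate 3 of cKO medium, and of 0.15 to 0.31 in the libraries of the other 4 groups outside WT medium. The 23 members with all replicates above had a median length of 935 bases and the 19 split members one of 524 bases. Under LPS the 2 sets, which were drawn from the cKO medium values, had the same median difference of cKO LPS over WT LPS (0.70 each).

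**Figure D4:**
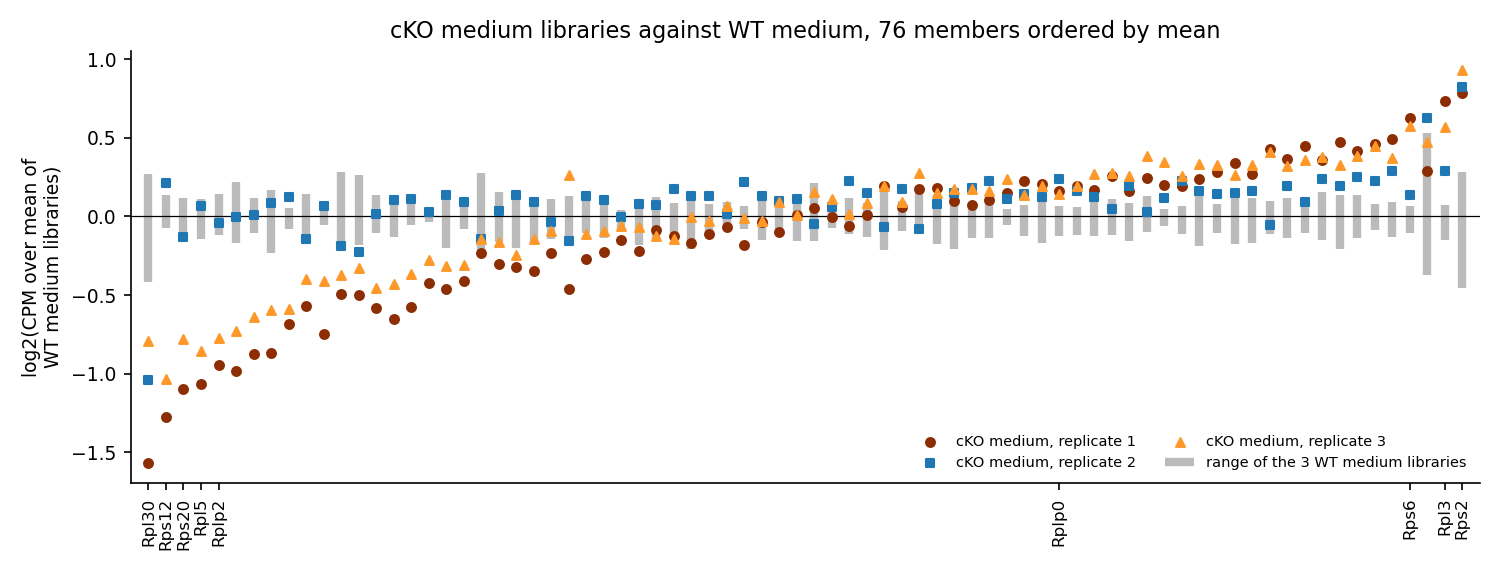
Log2 ratio of each cKO medium library to the mean of the WT medium libraries for the 76 members, ordered by their mean with 9 of them labelled; grey bars span the 3 WT medium libraries. Replicates 1 and 3 fall below the grey bars in the members on the left. Replicate 2 stays nearer 0 in most of these, but it also lies below the bars in Rpl30, Rpl28 and Rps28. Rps2 on the right is high in all 3 replicates.

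Counts of calls in cKO medium against WT medium rested on single libraries. The counts higher and lower were 2 and 1 without cKO medium replicate 1, 5 and 1 without cKO medium replicate 3, and 5 and 2 without WT medium replicate 1. Without cKO medium replicate 2, 17 members were lower. Without WT medium replicate 2, 2 were lower, and without WT medium replicate 3, 3 were higher. Without replicate 1 of both cKO groups, 3 were higher (Rpl3, Rpl13 and Rps2) and 1 lower (Rpl30). The precursor of ribosomal RNA, Rn45s, took 1.28 to 4.01% of counts in cKO medium against 6.38 to 8.02% in WT medium, with 11402 CPM in replicate 1, 35349 CPM in replicate 2 and 17508.5 CPM in replicate 3 of cKO medium. In the same comparison 11 of 14 granulocyte markers were called higher and 0 lower. With Rn45s removed before scaling the counts were 7 higher and 6 lower, and the part of the granulocyte genes was not tested.

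**Figure D5:**
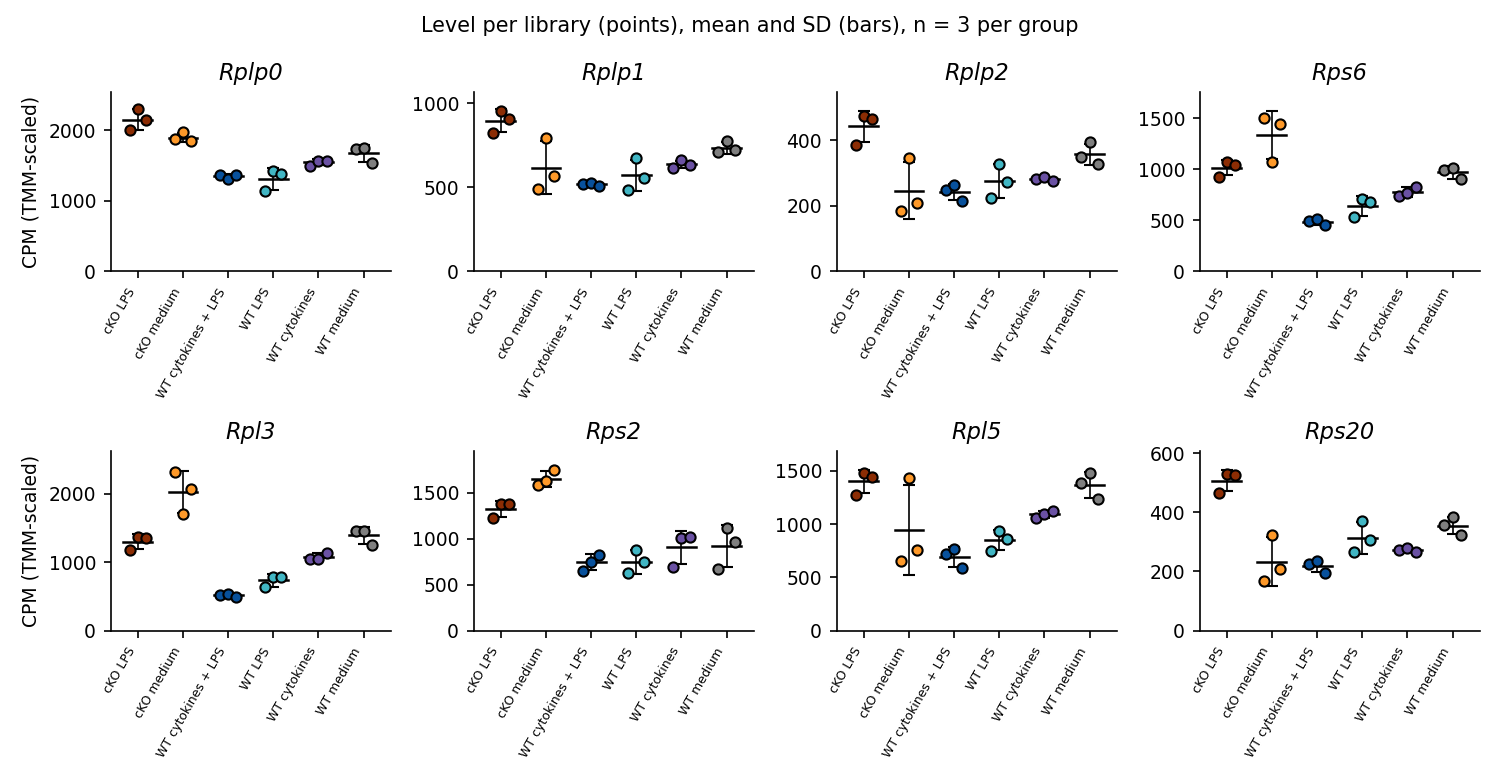
CPM of 8 members in every library, with the group mean and SD over 3 libraries. In all 8 members the 3 cKO LPS libraries lie above the 3 WT LPS libraries, and in Rplp1, Rplp2, Rpl5 and Rps20 replicate 2 of cKO medium stands above the other 2.

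The cytokines IL-10 and TGF-β lowered part of the ribosomal protein messages. In WT cytokine against WT medium 28 of 76 members were called lower and 0 higher, where 16.9% of all tested genes were called lower and 18.3% higher. The median was -0.26, against -0.00 over all tested genes, and in 58 members every WT cytokine library lay below every WT medium library, as in 23.2% of all tested genes. At an unadjusted p under 0.05, 42 were lower and 0 higher, and DESeq2 called 32 lower and 0 higher. The largest falls were those of Rpl37a, with 216, 226 and 202 CPM in WT cytokine, against 296, 365 and 282 CPM in WT medium (log2 fold change -0.55, SE 0.13, adjusted p = 0.0026), of Rpl38 (-0.52, SE 0.15, adjusted p = 0.012) and of Rpl36 (-0.51, SE 0.13, adjusted p = 0.0033). Rpl37a did not overlap between the groups. Rps6 was lower at -0.32 (adjusted p = 0.047; 0.053 with the replicate block), while Rpsa at -0.42 (adjusted p = 0.065) and Rpl22 at -0.30 (adjusted p = 0.1) missed the threshold and passed it with the block (adjusted p = 0.029 and 0.028). In the stalk Rplp0 was at -0.12 (adjusted p = 0.36), Rplp1 at -0.21 (adjusted p = 0.25) and Rplp2 at -0.34 (adjusted p = 0.17). The smallest falls called, of Rpl4 (-0.25, adjusted p = 0.047), Rpl11 (-0.25, adjusted p = 0.049) and Rpl8 (-0.29, adjusted p = 0.016), each lost the call under 3 to 7 alternatives. The count lower was 11 without WT cytokine replicate 1, 18 without WT cytokine replicate 2, 15 without WT medium replicate 1 and 8 without WT medium replicate 2. It was 47 when only the 2 groups were fitted, 59 on log2(TPM + 1) with a member median of -0.39 and an all-gene median of -0.12, and 16 with the length offset, while the replicate block gave 38. Among markers, 7 of 9 dendritic cell genes were lower and 13 of 14 granulocyte genes and 6 of 9 macrophage genes higher in WT cytokine, and their part in the result was not tested.

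When LPS was present, adding the cytokines lowered 22 of 76 members and raised 0, where 21.1% of all tested genes were called lower and 19.1% higher. The members' share was not far above the background. The median was -0.22, against -0.01 over all tested genes. At an unadjusted p under 0.05, 30 were lower and 0 higher, and DESeq2 called 26 lower and 0 higher. Rpl10a had 199, 194 and 177 CPM in WT cytokine plus LPS, against 243, 366 and 318 CPM in WT LPS (log2 fold change -0.70, SE 0.12, adjusted p = 8.5e-05), with no overlap. Rps20 (-0.53, SE 0.18, adjusted p = 0.023) and Rpl36 (-0.52, SE 0.13, adjusted p = 0.0028) followed, and Rps20 lost its call without WT LPS replicate 2 (adjusted p = 0.13) or WT cytokine plus LPS replicate 3 (adjusted p = 0.094). The smallest falls called were those of Rpl19 (-0.25, adjusted p = 0.036), Rpl8 (-0.25, adjusted p = 0.029) and Rps24 (-0.30, adjusted p = 0.034), each lost under 6 or 7 alternatives. Of the 76 members 67 had a negative value and 9 a positive one. Rps27 had the highest value and did not pass the test, with 209, 158 and 187 CPM in WT cytokine plus LPS, against 33.3, 69.4 and 151 CPM in WT LPS (log2 fold change 1.12, SE 0.58, adjusted p = 0.15). The count lower was 41 without WT LPS replicate 1, 7 without WT LPS replicate 2, 10 without WT LPS replicate 3, 13 without WT cytokine plus LPS replicate 1 and 9 without WT cytokine plus LPS replicate 3. All 9 tested dendritic cell markers and 8 of 11 cycling markers were also lower in WT cytokine plus LPS, while 9 of 14 granulocyte markers and 7 of 9 macrophage markers were higher, and their part was not tested.

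LPS added to the cytokines lowered 57 of 76 members and raised 0, where 23.1% of all tested genes were called lower and 23.9% higher, with a median of -0.42 against -0.00 over all tested genes. At an unadjusted p under 0.05, 63 were lower and 0 higher, and DESeq2 called 61 lower and 0 higher. Rpl30 had 11.6, 11.4 and 8.14 CPM in WT cytokine plus LPS, against 23.4, 33.0 and 23.8 CPM in WT cytokine (log2 fold change -1.37, SE 0.24, adjusted p = 0.00014). Rpl3 had 526, 535 and 488 CPM in WT cytokine plus LPS, against 1047, 1051 and 1133 CPM in WT cytokine (log2 fold change -1.06, SE 0.12, adjusted p = 3.1e-07), and Rpl10a changed by -0.99 (SE 0.12, adjusted p = 1.4e-06). These 3 were separated by group. All 11 cycling markers were also lower, with summed levels of 242 to 301 CPM in WT cytokine plus LPS and 788 to 1139 CPM in WT cytokine, and their part was not tested. The smallest falls called were those of Rps3 (-0.27, adjusted p = 0.026), Rpl29 (-0.27, adjusted p = 0.047) and Rps19 (-0.28, adjusted p = 0.041), each lost under 4 to 8 alternatives. The test of whether the cytokines changed the LPS response called 0 of 76 members in either direction, where 8.88% of all tested genes were called positive and 12.1% negative; 0 members passed an unadjusted p under 0.05 in either direction, and DESeq2 and limma on log2(TPM + 1) called 0. The member median of that difference was 0.07.

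Genes next to the members in the ribosome moved with them in part. Fau, which encodes the small subunit protein eS30 as a ubiquitin-like fusion, had 922, 1123 and 1091 CPM in cKO LPS, against 566, 703 and 666 CPM in WT LPS (log2 fold change 0.70, SE 0.12, adjusted p = 0.00015). Gnb2l1, the scaffold protein RACK1 of the small subunit head, had 515, 598 and 601 CPM in cKO LPS, against 317, 389 and 359 CPM in WT LPS (log2 fold change 0.69, SE 0.18, adjusted p = 0.0078), and its cKO medium libraries (280.5, 577 and 335 CPM, against 615, 612 and 593 CPM in WT medium) showed replicate 2 high, as in Rpl5. The groups under LPS did not overlap in either gene, and on log2(TPM + 1) the call on Gnb2l1 was lost (0.33, adjusted p = 0.14).

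Paralogs of ribosomal proteins were less uniform. They were listed together with Rps3a1, a small subunit gene whose symbol misses the pattern and which is not a paralog. Of 8 listed paralogs and related genes 6 could be tested, and Rpl10l and Rpl39l were at or near 0 CPM. In cKO LPS against WT LPS 3 of 6 were higher and 1 lower: Rps3a1 (0.59, SE 0.10, adjusted p = 0.0001), Rpl22l1 (0.55, SE 0.10, adjusted p = 0.00041; on log2(TPM + 1) 0.20, adjusted p = 0.066) and Rpl36al (0.36, SE 0.08, adjusted p = 0.0027; on log2(TPM + 1) -0.00018, adjusted p = 1) against Rpl7l1 (-0.80, SE 0.13, adjusted p = 0.00013). Of all tested genes 16.0% were higher and 19.3% lower in that comparison. The median of the list was 0.20, but -0.16 on log2(TPM + 1), where 1 was higher and 2 lower, and -0.03 with the length offset. Rpl7l1 had 31.8, 31.3 and 29.2 CPM in cKO LPS, against 66.1, 44.7 and 49.9 CPM in WT LPS, with no overlap. Rps27l, a p53 target and paralog of Rps27, had 198, 178 and 181 CPM in WT LPS, against 142, 144 and 155 CPM in WT medium (log2 fold change 0.34, SE 0.09, adjusted p = 0.0034; on log2(TPM + 1) 0.09, adjusted p = 0.45), and 92.0, 97.5 and 93.7 CPM in WT cytokine plus LPS, against 198, 178 and 181 CPM in WT LPS (log2 fold change -0.98, SE 0.09, adjusted p = 4.1e-08). Its cytokine by LPS difference was -0.82 (SE 0.13, adjusted p = 8.1e-05). Between cKO LPS and WT LPS it was at 0.03 (adjusted p = 0.81), and on log2(TPM + 1) at -0.33 (adjusted p = 0.011). Rpl3l, a muscle paralog of Rpl3, had 0.635, 0.192 and 0.466 CPM in cKO medium, against 2.12, 1.37 and 3.03 CPM in WT medium (log2 fold change -2.29, SE 0.47, adjusted p = 0.0011).

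Other TOP messages, mainly translation factors, shared the WT response. In WT LPS against WT medium 18 of 25 were lower and 1 higher (median -0.64), among them the elongation factor subunit Eef1d (-1.65, adjusted p = 8.2e-11), the nucleolar chaperone Npm1 (-1.36, adjusted p = 8.5e-11) and the initiation factor subunit Eif3l (-1.30, adjusted p = 5e-10). Of all tested genes 28.9% were lower and 29.8% higher in that comparison. In cKO LPS against WT LPS 14 of 25 were higher and 2 lower (median 0.41), where 16.0% of all tested genes were higher and 19.3% lower. On log2(TPM + 1) 3 were higher and 4 lower (median 0.05, with an all-gene median of -0.31). Npm1 (0.53, adjusted p = 0.00015) and Eef1g (0.50, adjusted p = 0.00033) lost their calls there, at 0.17 (adjusted p = 0.095) and 0.15 (adjusted p = 0.15), while Eif3k was at 0.59 (adjusted p = 0.00036). In cKO medium against WT medium 3 of 25 were higher and 5 lower, where 15.8% of all tested genes were higher and 14.4% lower, among them Eif3f (1.02, adjusted p = 0.00048), Eef1d (-0.52, adjusted p = 0.00092) and Eif4a2 (0.84, adjusted p = 0.0028).

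Factors that fold, import and assemble ribosomal proteins were lower where the members were higher under LPS. In cKO LPS against WT LPS 14 of 19 were lower and 1 higher (median -0.81; on log2(TPM + 1) 16 lower and 0 higher), among them Lsg1, the cytoplasmic release GTPase of the large subunit (-0.97, adjusted p = 8e-05), Heatr3, an adaptor for the import of Rpl5 (-1.83, adjusted p = 0.00012), and Bysl, a small subunit assembly factor (-1.31, adjusted p = 0.00019). In WT LPS against WT medium 16 of 19 were lower and 1 higher (median -1.31), with Rrs1, which in yeast helps place Rpl5 and Rpl11 (-2.13, adjusted p = 2.4e-09), Mrto4, a relative of the stalk base protein that holds its place during assembly (-2.11, adjusted p = 5.7e-09), and Grwd1, whose yeast relative is a chaperone of Rpl3 (-3.04, adjusted p = 1e-08). In cKO medium against WT medium 11 of 19 were lower and 1 higher, with Grwd1 (-1.32, adjusted p = 0.00029), Bccip, a chaperone of Rpl23 (-0.69, adjusted p = 0.0011), and Tsr1, an assembly factor of the small subunit (-0.996, adjusted p = 0.0011). Grwd1 had 8.17, 6.06 and 5.12 CPM in cKO medium, against 15.5, 12.8 and 20.2 CPM in WT medium, and the groups did not overlap. The shares of all tested genes called lower and higher were 19.3% and 16.0% in cKO LPS against WT LPS. They were 28.9% and 29.8% in WT LPS against WT medium and 14.4% and 15.8% in cKO medium against WT medium.

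Genes that regulate TOP messages gave no common direction, with 3 of 19 higher and 3 lower in cKO LPS against WT LPS and 2 higher and 5 lower in cKO medium against WT medium. Of all tested genes 16.0% were higher and 19.3% lower under LPS, and 15.8% and 14.4% in medium. The counts under LPS were near these shares. On log2(TPM + 1), 1 regulator was higher and 8 lower in cKO LPS against WT LPS. Ddit4, an inhibitor of mTORC1, had 116, 117 and 117 CPM in cKO LPS, against 17.6, 13.3 and 17.2 CPM in WT LPS (log2 fold change 2.87, SE 0.13, adjusted p = 1.9e-12), and 4.17, 3.75 and 3.45 CPM in cKO medium, against 0.764, 0.515 and 0.336 CPM in WT medium (log2 fold change 2.79, SE 0.25, adjusted p = 1.7e-07). It was higher in all cKO libraries than in the WT libraries of the same treatment. Larp1, the TOP-binding repressor, was lower in cKO medium than in WT medium (-0.93, adjusted p = 0.00017), as was Larp4, a protein that binds poly(A) tails (-0.95, adjusted p = 0.00084). Under LPS, Tsc2, an upstream brake on mTORC1, was lower in cKO LPS than in WT LPS (-0.64, adjusted p = 0.00014), and the cap-binding protein gene Eif4e was higher (0.50, adjusted p = 0.00019; on log2(TPM + 1) 0.14, adjusted p = 0.23). In WT LPS against WT medium 5 were higher and 4 lower (on log2(TPM + 1) 2 and 6), with Ddit4 at 4.87 (adjusted p = 4.5e-14), Tsc1, the partner of Tsc2, at 1.00 (adjusted p = 8.7e-07) and Cnbp, a protein that binds TOP messages, at -0.75 (adjusted p = 2.3e-06). Of all tested genes 29.8% were higher and 28.9% lower in that comparison.

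Of 9 genes of the MDM2 and p53 axis, a list that includes p53 targets and no ribosomal protein, 8 were higher and 1 lower in WT LPS against WT medium (median 1.403). The p53 inhibitors Mdm4 (1.82, adjusted p = 3.9e-12) and Mdm2 (3.08, adjusted p = 1.5e-10) and the cell-cycle inhibitor gene Cdkn1a (2.23, adjusted p = 4.6e-12) led that list. In cKO medium against WT medium 3 of 9 were higher and 0 lower, namely Cdkn1a (1.03, adjusted p = 4.7e-06), Mdm2 (0.93, adjusted p = 0.00076) and Bbc3, a p53 target in cell death (1.24, adjusted p = 0.00086). In cKO LPS against WT LPS 2 were higher, Bbc3 (1.47, adjusted p = 4.5e-05) and Cdkn1a (0.51, adjusted p = 0.0026; on log2(TPM + 1) 0.15, adjusted p = 0.3), and Ccng1, a p53 target, was lower (-0.37, adjusted p = 0.013), a call lost under 5 alternatives. The list's median in this comparison was 0.11, but -0.24 on log2(TPM + 1), where 1 was higher and 3 lower. Of all tested genes 29.8% were higher and 28.9% lower in WT LPS against WT medium. The shares were 15.8% and 14.4% in cKO medium against WT medium, and 16.0% and 19.3% in cKO LPS against WT LPS.

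Factors of ribosome quality control, a list that holds the deleted gene Bag6, had 2 of 15 higher and 5 lower in both genotype comparisons, Bag6 being 1 of the 5, where 15.8% of all tested genes were higher and 14.4% lower in medium, and 16.0% and 19.3% under LPS. The list had on log2(TPM + 1) 0 higher and 8 lower in cKO LPS against WT LPS. Besides Bag6, Get4, which works with Bag6 in tail-anchored protein insertion, was higher in cKO medium than in WT medium (0.59, adjusted p = 0.0018) and Gcn1l1, a sensor of colliding ribosomes, lower (-0.51, adjusted p = 0.0059). Usp10, a deubiquitinase of ribosomal proteins (-1.53, adjusted p = 2.8e-05), and Ltn1, the ligase of stalled nascent chains (-0.97, adjusted p = 5.3e-05), were lower in cKO LPS than in WT LPS. In WT LPS against WT medium 2 were higher and 7 lower, with G3bp1, a stress granule protein, at -1.32 (adjusted p = 4.5e-10) and Ubl4, a Bag6 partner, at -0.74 (adjusted p = 2.4e-05). Of all tested genes 29.8% were higher and 28.9% lower in that comparison.

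Mitochondrial ribosomal proteins did not share the rise in cKO LPS. Of 76 genes 4 were higher and 26 lower in cKO LPS than in WT LPS (median -0.23; on log2(TPM + 1) 0 higher and 57 lower), among them Mrps18b (-1.41, adjusted p = 5.9e-06), Mrps27 (-0.97, adjusted p = 0.00011) and Mrpl36 (-0.94, adjusted p = 0.00035). In WT LPS against WT medium they fell with the cytosolic members, with 47 lower and 6 higher (median -0.38), among them Mrpl23 (-1.16, adjusted p = 9.8e-09), Mrpl33 (-1.20, adjusted p = 1.2e-08) and Mrps2 (-1.46, adjusted p = 2.5e-08). In cKO medium against WT medium 14 were lower, with Mrpl12 (-0.81, adjusted p = 0.00061) and Mrpl9 (-0.58, adjusted p = 0.00084) among them, and 4 higher, with Mrpl45 at 0.78 (adjusted p = 8.4e-06). Of all tested genes 14.4% were lower and 15.8% higher in that comparison, so the 14 lower were not far above that share. The shares lower and higher were 19.3% and 16.0% in cKO LPS against WT LPS, and 28.9% and 29.8% in WT LPS against WT medium.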

How the data were processed

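RNA of 18 libraries was measured by sequencing, with 3 libraries in each of 6 groups. The authors deposited RSEM expected counts and TPM values per gene and library, and the gene length that RSEM weights by isoform, per the file headers. The genome build was mm10 and the tools RSEM and bcl2fastq, per the submitters' processing notes, and their versions are not given in the sources used here. The series design text names BWA, TopHat and Cufflinks instead, and the headers were followed. The submitters' texts also differ on the number of replicates. RSEM shares reads that map to several genes among them, so counts of near-identical copies depend on that split. Library totals were 8056831 to 12068759 expected counts, and their number limits the precision of low genes.

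Expected counts were rounded to whole numbers, filtered with filterByExpr and scaled by TMM, and CPM values were computed with the TMM library sizes. A robust quasi-likelihood model of edgeR 4.0.16 (R 4.3.3) was fitted to all 6 groups, with 7 pair comparisons and 2 interactions, two-sided, and Benjamini-Hochberg adjustment over 11876 genes at 0.05. The model was checked on simulated data, with changes placed in randomly drawn genes of cKO LPS. It called 30.5% of 1.5-fold, 66.7% of 2-fold and 92.5% of 4-fold changes, so a gene not called may still differ. Alternatives were RLE scaling, DESeq2 1.42.0, no filter, a fit of only the compared groups, a block for replicate number, limma 3.58.1 on log2(TPM + 1), an offset for a lowess trend (span 0.3) of fold change on length in non-members, removal of Rn45s, replicate 1 of both cKO groups left out, and each library left out. Shares of counts carry no test. Replicates differed by more than counting noise in every pair of one group.

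The members, context lists and markers were chosen with earlier results of these data known. Named were members fixed by role, the 3 highest and 3 lowest called members of each comparison, the listed paralogs and core genes, and in each other list the 3 called genes with the smallest p in 3 comparisons. A few genes that the rule names are not reported here. Labels tie replicate numbers to no animal or batch. Deviations of same-numbered libraries correlated above 0.1 in every pair only between WT cytokine and WT medium (0.32, 0.18 and 0.40). That is 1 of 15 pairs of groups, which does not establish a pairing. Between cKO LPS and cKO medium the correlations were 0.17, 0.07 and 0.15, and replicate 1 of both groups held Xist. Whether cKO libraries of the same number share a donor is not told by the labels. The block is therefore only an alternative setting. Gene coordinates and start windows came from RefSeq on GRCm38.p6, where 56 of 76 members had a window.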

Additional observations from a re-analysis of the deposited data

Results flagged for a closer look

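On TMM-scaled counts most members answered LPS differently in cKO and WT cells by edgeR's direct test of that difference. At an adjusted p under 0.05, 57 of 76 members were positive, as were 7.33% of all tested genes. On log2(TPM + 1) 34 members were positive. Among the named members the difference in log2 fold change (cKO minus WT) was 0.53 for Rplp0, 0.90 for Rplp1, 1.22 for Rplp2, 1.25 for Rpl5, 0.63 for Rps27a, 0.89 for Rpl22, 0.85 for Rpl10, 0.91 for Rpl38, 1.16 for Rpsa, 1.30 for Rps20, 1.27 for Rpl30, 0.42 for Rpl8 and 0.46 for Rpl15. In Rplp1, Rplp2, Rpl5, Rpl22, Rpsa and Rps20 cKO medium replicates 1 and 3 lay below all WT medium libraries and replicate 2 did not. The differences of these members thus rest on a cKO medium baseline that varied between libraries. Related genes outside the members gave 0.53 for Rpl36al, 0.57 for Rps3a1 and 1.30 for Gnb2l1. On log2(TPM + 1) the calls on Rpl36al (0.24, adjusted p = 0.095), Rps3a1 (0.29, adjusted p = 0.059), Rplp0 (0.25, adjusted p = 0.064) and Rps27a (0.36, adjusted p = 0.053) were lost, and with the length offset those on Rpl36al (0.24, adjusted p = 0.13) and Rpl38 (0.46, adjusted p = 0.075). The cytokines changed the LPS response of the paralog Rps27l, by -0.82.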

How the results depend on the processing

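For the counts of members, 235 of 284 values under alternatives stayed within 1.5 times the reported count. The tally includes counts that were 0 in the main fit and mostly stayed at 0, so it overstates how stable the other counts were. For cKO medium against WT medium, members higher were 6 with RLE scaling, 6 with only the groups compared, 16 with the length offset and 3 without replicate 1 of both cKO groups, and members lower were 8 with DESeq2, 15 without a filter, 1 with only the groups compared, 15 with the replicate block, 17 on log2(TPM + 1) and 1 without both of those replicates. For cKO LPS against cKO medium, 1 was higher and 49 lower on log2(TPM + 1), and 2 were lower with RLE scaling, 2 with DESeq2, 1 with the length offset and 1 without both replicates. In WT LPS against WT medium the length offset gave 1 higher and 37 lower. In WT cytokine against WT medium, members lower were 47 with only the groups compared, 59 on log2(TPM + 1) and 16 with the length offset. In WT cytokine plus LPS against WT LPS, 1 was higher without a filter and 13 lower with only the groups compared. Without a filter Rps27 was also called higher, 1 each, in WT cytokine plus LPS against WT cytokine and in the cytokine by LPS test. The genotype by LPS test gave 34 positive on log2(TPM + 1). The cause of these changes was not tested.

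Leaving out single libraries gave 2 to 13 higher and 1 to 17 lower for cKO medium against WT medium, 69 to 73 higher for cKO LPS against WT LPS, 18 to 38 higher and 1 to 7 lower for cKO LPS against cKO medium, 54 to 68 lower for WT LPS against WT medium, 8 to 36 lower for WT cytokine against WT medium, 0 to 1 higher and 7 to 41 lower for WT cytokine plus LPS against WT LPS, 39 to 53 lower for WT cytokine plus LPS against WT cytokine, and 46 to 66 positive for the genotype by LPS test.

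On log2(TPM + 1), values of cKO LPS against cKO medium turned negative for the member median (-0.35), Rplp0 (-0.35), Rps27a (-0.41), Rpl10 (-0.18), Rpl38 (-0.31) and Fau (-0.45), and in cKO LPS against WT LPS for Rpl36al (-0.00018) and Rps27l (-0.33). With the length offset Rpl23a turned to 0.0033 in WT LPS against WT medium. With the replicate block 38 members were lower in WT cytokine against WT medium. Same-numbered libraries deviated together there, but the labels give no pairing. Elsewhere it moved a count of members by over 1.5 times in 1 case, the 15 lower in cKO medium against WT medium, where same-numbered libraries did not deviate together.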
